A study of Homo sapiens with 56 samples.

Results

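The 12 vehicle-treated libraries of Mv4;11 were examined here for what changed in the cells between 12 h and 3 h of culture when no inhibitor was present. They were taken from a series of 56 RNA sequencing libraries made to study PMR-116 and CX-5461, compounds that inhibit RNA polymerase I. Membership was set by the labels alone (cell line, vehicle and time), with 6 libraries at 12 h and 6 at 3 h. Mv4;11 is an established human acute myeloid leukaemia line of monocytic type that carries a KMT2A-AFF1 fusion and an internal tandem duplication in FLT3. All libraries came from cells in RPMI medium with 10% fetal bovine serum, 2 mM glutamine and 1% penicillin-streptomycin at 37 °C and 5% CO2, and all received the vehicle, which the labels give as 50 mM citric acid with 50 mM NaH2PO4. At 12 h the groups were the PMR-116 vehicle (3 libraries) and the CX-5461 vehicle (3 libraries), and at 3 h the same 2 vehicle sets again had 3 libraries each. The labels give both sets the same vehicle. No library was taken before the vehicle was added and no culture went without it, so time in culture and time in vehicle cannot be told apart. The labels do not say whether replicates were separate cultures, so the p-values measure the spread between these libraries, which may be technical.

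Cells in a suspension culture consume glucose, amino acids and oxygen and release lactate and cytokines, so that the medium at a later time differs from that at an earlier one. Transcription factors read these changes: HIF1A follows oxygen, ATF4 follows amino acid supply and SREBF2 follows sterol supply. In myeloid cells, antigen-presentation genes under the class II transactivator CIITA are among those set by differentiation and cytokine signals. None of these inputs was measured here.

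Library totals ran from 28751800 to 41542200 estimated counts, with 27765 to 31395 genes above 0 per library. The line's own markers were present at both times, with FLT3 at 374 to 449 CPM (counts scaled to library size) at 12 h and 414 to 459 CPM at 3 h, and CD33 at 104 to 115 CPM at 12 h and 98.1 to 117 CPM at 3 h. The myeloid transcription factor SPI1 had 202 to 216 CPM at 12 h and 219 to 254 CPM at 3 h, and CEBPA had 248 to 271 CPM at 12 h and 273 to 305 CPM at 3 h, both lower at 12 h without overlap. Defining markers of other cell types were at or near 0 in every library: MS4A1 of B cells was at 0, CD3E of T cells was at most 0.0576 CPM and EPCAM of epithelium was at most 0.105 CPM. One library stood apart, replicate 3 of the PMR-116 vehicle at 12 h (n3 below). It had 432 CPM of the signal recognition particle RNA RN7SL2, against 8.96 to 15.5 CPM in the other 12 h libraries, and 1111 CPM of the nuclear noncoding RNA MALAT1, against 57.9 to 71.8 CPM there. Its mitochondrial ribosomal RNA MT-RNR1 reached 2572 CPM, against 313 to 356 CPM in the other 12 h libraries. Results that rest on this library are given with and without it.

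In a fit with terms for time and vehicle set, 2418 of 18690 genes tested differed between 12 h and 3 h at an adjusted p under 0.05 (12.9%). Of these, 1065 were higher at 12 h (5.7% of genes tested) and 1353 were lower (7.24%). The changes were small: the median size of a called change was 0.27 on the log2 scale, and 121 genes passed the test with a change of 2-fold or more (0.647%), 73 higher (0.391%) and 48 lower (0.257%). Over all tested genes the median was 0.01. All 6 libraries at 12 h lay above all 6 at 3 h in 502 genes (2.69%) and below them in 727 (3.89%). Without n3 the count of called genes was 2040, of which 1844 were also called with it, and without CX-5461 vehicle n3 at 12 h it was 1566. With same-numbered libraries of both vehicle sets summed, since they may not be independent, the count was 824. That setting was added after seeing the data. In all that follows, ± after a log2 fold change is its standard error, positive values mean higher at 12 h, and levels are CPM.

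**Figure D1:**
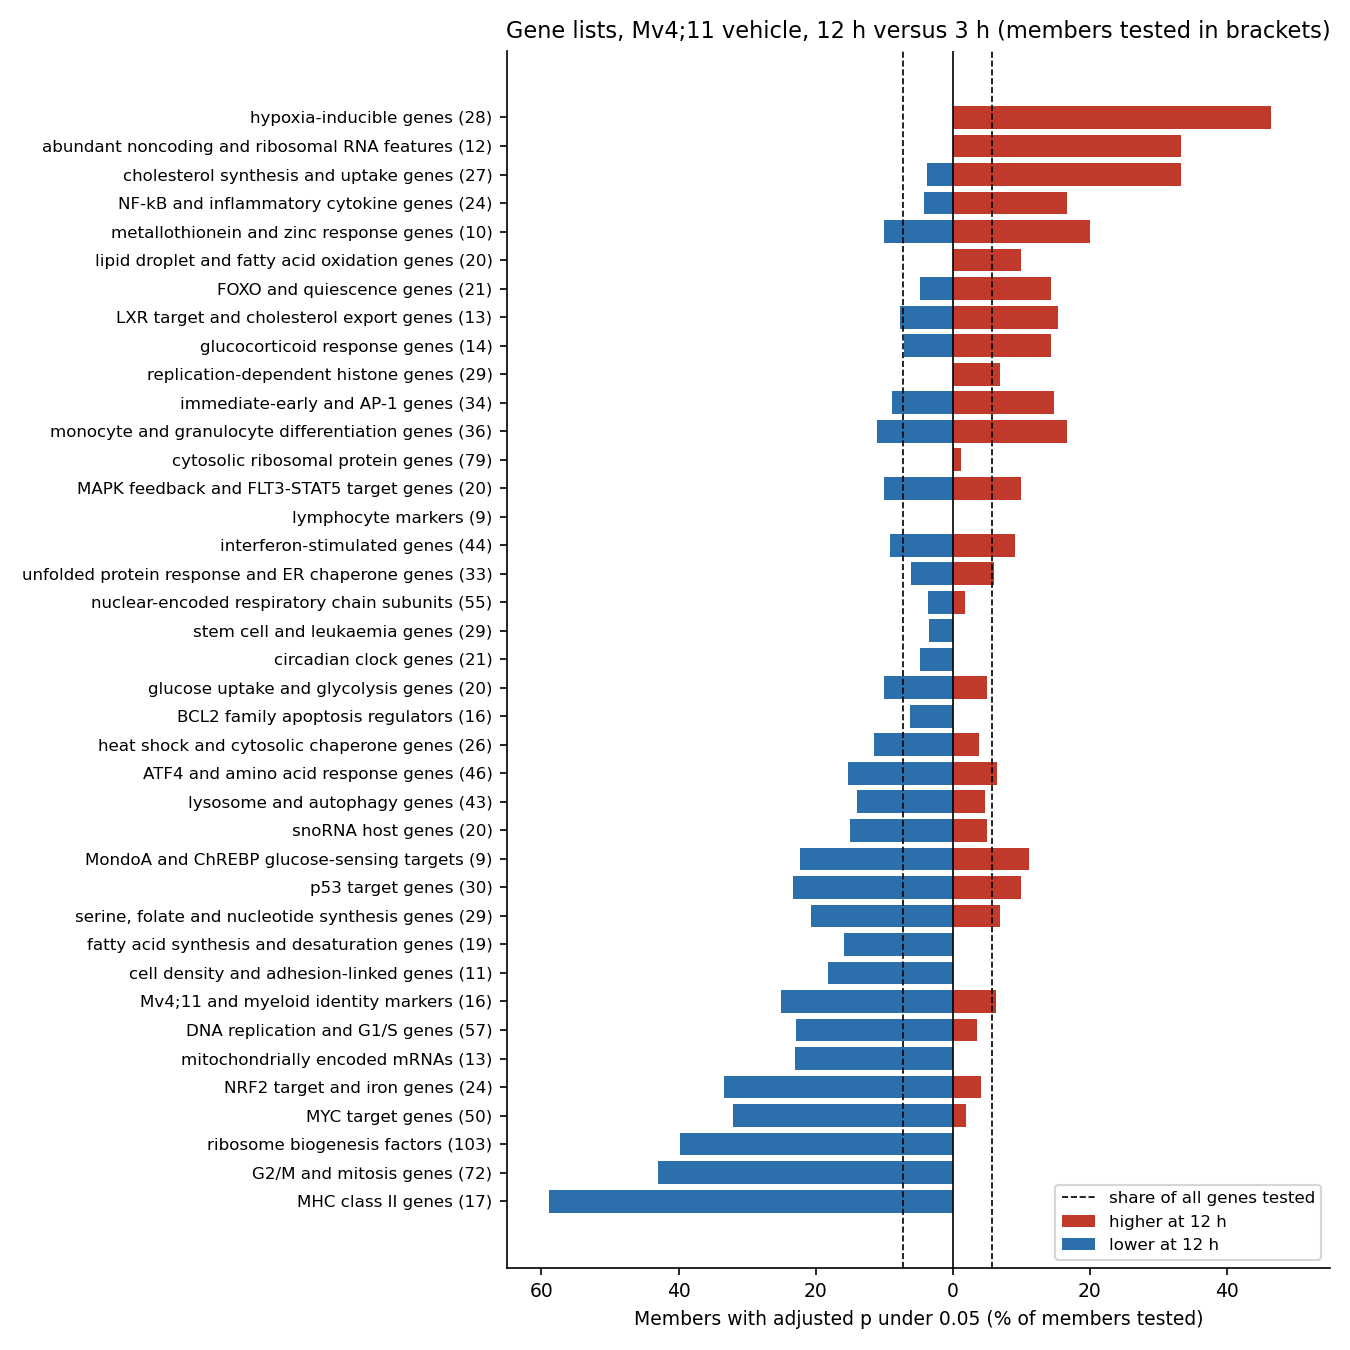
Share of tested members of each gene list that were higher (red, to the right) or lower (blue, to the left) at 12 h than at 3 h, as a percentage of members tested, with the number tested in brackets. Dashed lines mark the shares of all genes tested, 5.7% higher and 7.24% lower, and the MHC class II list reaches farthest to the left and the hypoxia list farthest to the right.

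The list with the largest share of lower members was that of the MHC class II pathway. These genes encode paired alpha and beta chains that present peptides on the cell surface, the chaperones that load them, and CIITA, which works with the RFX complex on a promoter that also carries a CCAAT box bound by NF-Y. Of 17 members tested, 10 were lower at 12 h (58.8%, against 7.24% of all genes tested) and 0 were higher (against 5.7%). The median log2 fold change was -0.62, against 0.01 over all genes tested. Summed over the list, the level was 609 to 734 CPM at 12 h and 861 to 1042 CPM at 3 h, so that the groups did not overlap. Promoter sequences are shown for the 4 called members with the smallest p among those with a single promoter in the reference table. They are shown since the CCAAT box is the part of the class II promoter that can be read from letters alone. They are the 150 bases before the annotated start from RefSeq on GRCh38.p14, written 5′ to 3′ on the gene's strand, with CCAAT or its reverse complement ATTGG in capitals. They are chr6:32589849-32589998 for HLA-DRB1, chr5:150412911-150413060 for CD74, chr6:32953098-32953247 for HLA-DMA and chr6:32530288-32530437 for HLA-DRB5, all on the minus strand.
HLA-DRB1: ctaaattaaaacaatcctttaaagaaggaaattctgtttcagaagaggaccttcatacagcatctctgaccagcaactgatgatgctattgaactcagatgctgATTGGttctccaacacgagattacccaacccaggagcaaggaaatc
CD74: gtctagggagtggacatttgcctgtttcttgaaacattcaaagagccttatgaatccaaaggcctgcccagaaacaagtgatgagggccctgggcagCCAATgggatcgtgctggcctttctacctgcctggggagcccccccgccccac
HLA-DMA: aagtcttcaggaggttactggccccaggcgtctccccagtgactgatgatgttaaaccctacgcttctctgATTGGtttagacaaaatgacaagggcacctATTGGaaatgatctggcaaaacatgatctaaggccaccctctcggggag
HLA-DRB5: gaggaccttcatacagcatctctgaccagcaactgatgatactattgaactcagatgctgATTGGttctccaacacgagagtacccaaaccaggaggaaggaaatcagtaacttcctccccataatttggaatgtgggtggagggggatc
The match began 46 bases before the start in HLA-DRB1, 53 in CD74 and 90 in HLA-DRB5, and HLA-DMA had matches at 79 and 49 bases. Of the 14 tested members that had a promoter in the table, 11 held the motif on either strand, as did 7 of the 8 called members with a promoter. In the whole table, 27.8% of 27305 genes and 23.5% of 35116 promoters held it. HLA genes are highly polymorphic, and the letters are those of the reference, not of the alleles of Mv4;11. A match is a description of the sequence and not evidence of a bound site.

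HLA-DRA, the invariant alpha chain of HLA-DR, had a lowest, median and highest level of 34, 44.9 and 49.9 CPM at 12 h, against 75.7, 97.5 and 105 CPM at 3 h. Every 12 h library lay below every 3 h library, and the log2 fold change was -1.06 ± 0.0987 (adjusted p = 3.33e-05). HLA-DRB1, its main beta chain, had 11.7, 14.7 and 16.7 CPM at 12 h and 24.4, 27.7 and 32 CPM at 3 h, again without overlap (-0.93 ± 0.0848, adjusted p = 3.33e-05). HLA-DRB5, a further beta chain whose reads resemble those of HLA-DRB1, had 1.52, 1.70 and 2.03 CPM at 12 h and 2.3, 2.99 and 4.02 CPM at 3 h (-0.84, adjusted p = 0.0024). How reads were divided between such near-identical chains is uncertain, and their separate fold changes are less sure than the sum.

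HLA-DPA1, the HLA-DP alpha chain, had 6.97, 8.03 and 9.12 CPM at 12 h and 10.3, 19.3 and 22.7 CPM at 3 h, with no overlap (-1.15 ± 0.149, adjusted p = 0.000321). Its partner HLA-DPB1 had 1.71, 3.46 and 4.84 CPM at 12 h and 3.72, 6.01 and 7.44 CPM at 3 h, and these ranges overlapped (-0.77, adjusted p = 0.0305). That call was lost without n3 (adjusted p = 0.0504), without CX-5461 vehicle n2 or n3 at 12 h, and without n2 or n3 of either vehicle set at 3 h, with the highest adjusted p at 0.0787. HLA-DQB1 was also lower (-0.60, adjusted p = 0.00535), and its partner HLA-DQA1 had a log2 fold change of -0.62 that did not pass the test (adjusted p = 0.148).

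Of the loading machinery, CD74, the invariant chain that occupies the peptide groove until loading, had 301, 347 and 383 CPM at 12 h and 472, 536 and 586 CPM at 3 h, without overlap (-0.62 ± 0.0597, adjusted p = 3.33e-05). HLA-DMA, a chain of the catalyst that removes the CD74 fragment from the groove, had 6.64, 6.98 and 8.12 CPM at 12 h and 10.2, 12.3 and 13.6 CPM at 3 h (-0.73 ± 0.088, adjusted p = 0.000196). Its partner HLA-DMB was lower by a similar amount with overlapping ranges (-1.01 ± 0.216, adjusted p = 0.00717). CTSS, the protease that trims CD74, stood at 0.15 on the log2 scale (adjusted p = 0.274), and HLA-DOB, a chain of the inhibitor of HLA-DM, at -0.39 (adjusted p = 0.15).

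Of the regulators, CIITA had 21.9, 26.2 and 30.2 CPM at 12 h and 27.5, 33.4 and 38.8 CPM at 3 h. The ranges overlapped, and the call (-0.33 ± 0.0945, adjusted p = 0.0302) was lost in 6 of the 12 fits that left out 1 library: PMR-116 vehicle n1 or n2 or CX-5461 vehicle n2 at 12 h, and PMR-116 vehicle n3 or CX-5461 vehicle n1 or n2 at 3 h. Of the RFX complex, RFX5 was at -0.03 (adjusted p = 0.739), RFXAP at -0.05 (adjusted p = 0.752) and RFXANK at 0.02 (adjusted p = 0.834), all on the log2 scale. Between 8 and 10 members of the list were lower whichever library was left out, 9 of them without n3, where the list's median was -0.58. In bulk RNA, a smaller number of cells with these transcripts and less of them per cell cannot be told apart. Summed markers of other cell types overlapped between times, at 23.1 to 28.4 CPM at 12 h and 22.7 to 28.4 CPM at 3 h for 19 lymphocyte genes, none of whose 9 tested members was called. For 18 fibroblast, endothelial and epithelial genes the sums were 71.4 to 90.5 CPM at 12 h and 80.1 to 93.6 CPM at 3 h. Of its 6 tested members, the smooth muscle actin ACTA2 was higher without overlap, at 2.73 to 4.18 CPM at 12 h and 1.12 to 2.48 CPM at 3 h (0.98 ± 0.186, adjusted p = 0.00357), and PECAM1, which myeloid cells also carry, was lower (-0.28 ± 0.077, adjusted p = 0.0261). Their part in the class II result was not tested.

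**Figure D2:**
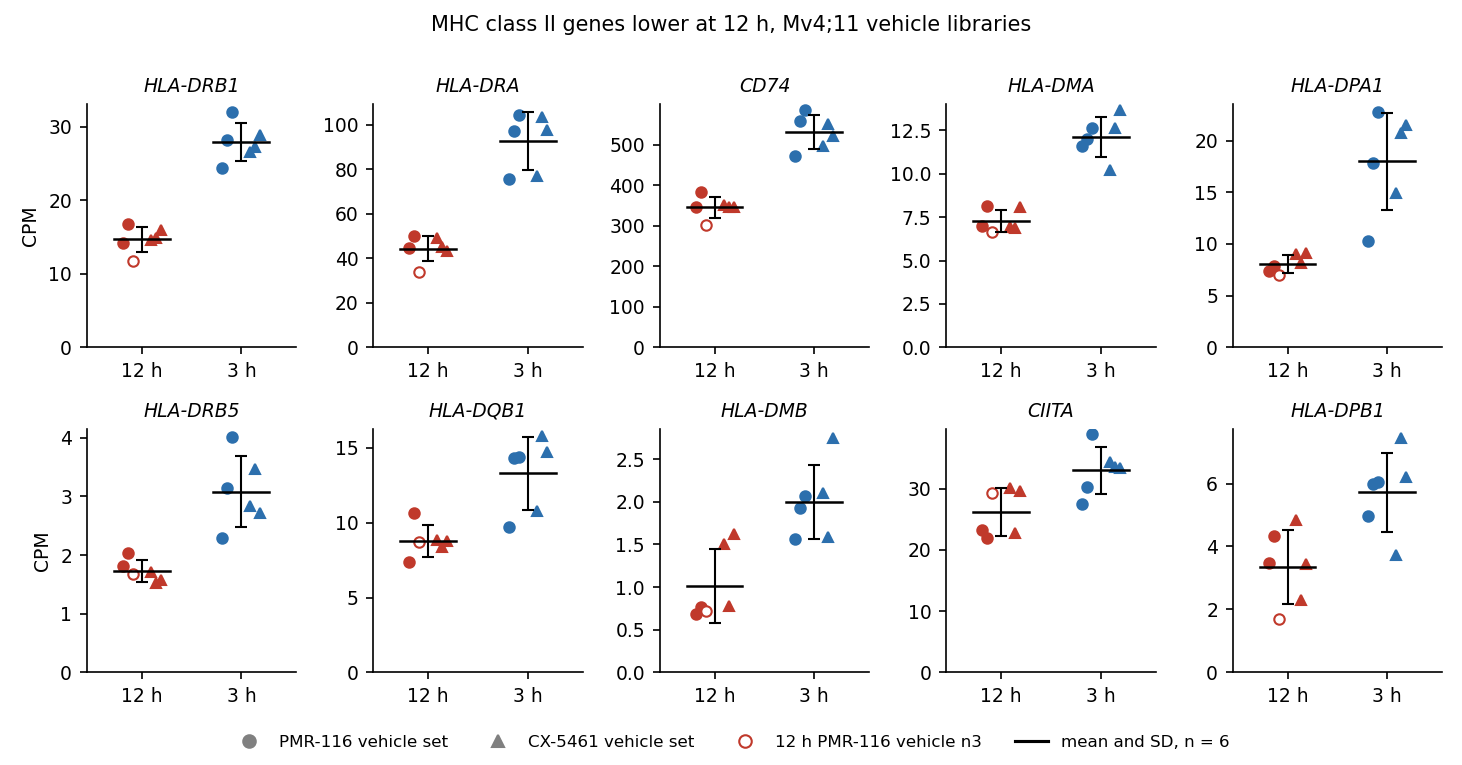
CPM of the 10 MHC class II genes that were lower at 12 h, in each Mv4;11 vehicle library (circles, PMR-116 set; triangles, CX-5461 set; open circle, n3 at 12 h), with the mean and SD of 6 libraries. In HLA-DRA all 12 h libraries lie at 49.9 CPM or less and all 3 h libraries at 75.7 CPM or more, while the 2 times overlap in CIITA and HLA-DPB1.

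The list with the largest share of higher members was that of hypoxia-inducible genes, which HIF1A and its relatives switch on when oxygen falls. Of 28 members tested, 13 were higher at 12 h (46.4%, against 5.7% of all genes tested) and 0 were lower (against 7.24%). The median log2 fold change of the 28 was 0.21. Their summed level was 1049 to 1486 CPM at 12 h and 945 to 1049 CPM at 3 h, so that the lowest 12 h library met the highest 3 h library. The count was 12 without n3 and lay between 11 and 14 when any 1 library was left out. Promoters are printed for 3 called members, a choice made after their values were seen, because the core of the HIF site is a short string that can be searched. They are again the 150 bases before the RefSeq start on GRCh38.p14, at chr10:73096867-73097016 on the minus strand for P4HA1, chr4:185396691-185396840 on the plus strand for ANKRD37 and chr10:131981924-131982073 on the minus strand for BNIP3, with ACGTG or its reverse complement CACGT in capitals.
P4HA1: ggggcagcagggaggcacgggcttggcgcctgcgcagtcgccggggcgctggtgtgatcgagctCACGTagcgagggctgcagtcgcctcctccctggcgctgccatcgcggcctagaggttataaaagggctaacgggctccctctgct
ANKRD37: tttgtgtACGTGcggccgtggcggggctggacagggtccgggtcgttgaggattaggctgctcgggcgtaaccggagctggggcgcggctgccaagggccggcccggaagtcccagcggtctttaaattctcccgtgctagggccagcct
BNIP3: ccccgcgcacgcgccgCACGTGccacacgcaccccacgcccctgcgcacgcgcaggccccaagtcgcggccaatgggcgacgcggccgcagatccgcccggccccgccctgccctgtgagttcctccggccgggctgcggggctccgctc
The match began 86 bases before the start in P4HA1 and 143 in ANKRD37, and in BNIP3 a match on each strand, at 134 and 133 bases, overlapped to form a palindrome. Of the 22 tested members with a promoter in the table, 13 held the motif, as did 5 of the 10 called ones, against 15.2% of all genes and 12.6% of all promoters in the table. The same window of ADM, also called, held 0 matches and is not printed. No match in a window says only that these letters are not within it.

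P4HA1, a collagen prolyl hydroxylase subunit, had 57.2, 75.1 and 107 CPM at 12 h and 35.8, 39.4 and 43.4 CPM at 3 h, with every 12 h library above every 3 h library (0.99 ± 0.119, adjusted p = 0.000193). BNIP3, a mitophagy receptor of the outer mitochondrial membrane, had 18, 27 and 38.2 CPM at 12 h and 11.9, 13.7 and 16.6 CPM at 3 h (0.94 ± 0.147, adjusted p = 0.00113). ANKRD37, a small ankyrin-repeat protein, had 2.40, 3.20 and 4.27 CPM at 12 h and 1.01, 1.28 and 1.67 CPM at 3 h (1.29 ± 0.188, adjusted p = 0.00073). Both were without overlap, as was MXI1, a MAX partner that opposes MYC, with 52.6, 64.1 and 71.8 CPM at 12 h and 45.4, 46 and 48.9 CPM at 3 h (0.45 ± 0.076, adjusted p = 0.00189). ZNF395, a zinc-finger factor, had 63.0 to 119 CPM at 12 h and 51.2 to 60.4 CPM at 3 h (0.71 ± 0.134, adjusted p = 0.00335).

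Other members were higher on average with ranges that overlapped. NDRG1, a stress-responsive growth regulator, had 61.9, 104 and 173 CPM at 12 h and 51.2, 60.7 and 67.3 CPM at 3 h (0.87 ± 0.181, adjusted p = 0.00612). PFKFB4, which makes the glycolytic activator fructose 2,6-bisphosphate, had 13.9, 21.2 and 30.2 CPM at 12 h and 10.9, 13.2 and 14.2 CPM at 3 h (0.75 ± 0.157, adjusted p = 0.00667). The histone demethylases KDM3A (0.35) and KDM4B (0.28) and the adenylate kinase AK4 (1.09 ± 0.27) passed the test as well. ADM, which encodes the vessel-relaxing peptide adrenomedullin, was at 0.163, 0.707 and 0.98 CPM at 12 h and 0, 0.0295 and 0.164 CPM at 3 h. These are levels of a few counts, and its call was lost in DESeq2. EGLN3, a HIF prolyl hydroxylase at similarly low levels, lost its call in DESeq2 and kept it in 4 of the 12 fits that left out a library, those without PMR-116 vehicle n1 or CX-5461 vehicle n2 at 12 h, or without PMR-116 vehicle n2 or CX-5461 vehicle n1 at 3 h. BNIP3L, another mitophagy receptor, was higher by 0.40 ± 0.119 (adjusted p = 0.0376), a call lost without PMR-116 vehicle n2 or CX-5461 vehicle n3 at 12 h, and without n2 or n3 of either vehicle set at 3 h. PDK1, the pyruvate dehydrogenase kinase that HIF1A induces, had a log2 fold change of 0.24 that did not pass (adjusted p = 0.195).

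The 12 h libraries differed among themselves in these genes, across both vehicle sets. Over the 13 called members, CX-5461 vehicle n3 was the highest 12 h library in 9. CX-5461 vehicle n1 was among the 3 highest in 12, and PMR-116 vehicle n2 and CX-5461 vehicle n3 in 11 each. PMR-116 vehicle n1 and CX-5461 vehicle n2 were among them in 0, and each was the lowest in 6. What sets these libraries apart is not given in the labels, and no test was made of this order.

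**Figure D3:**
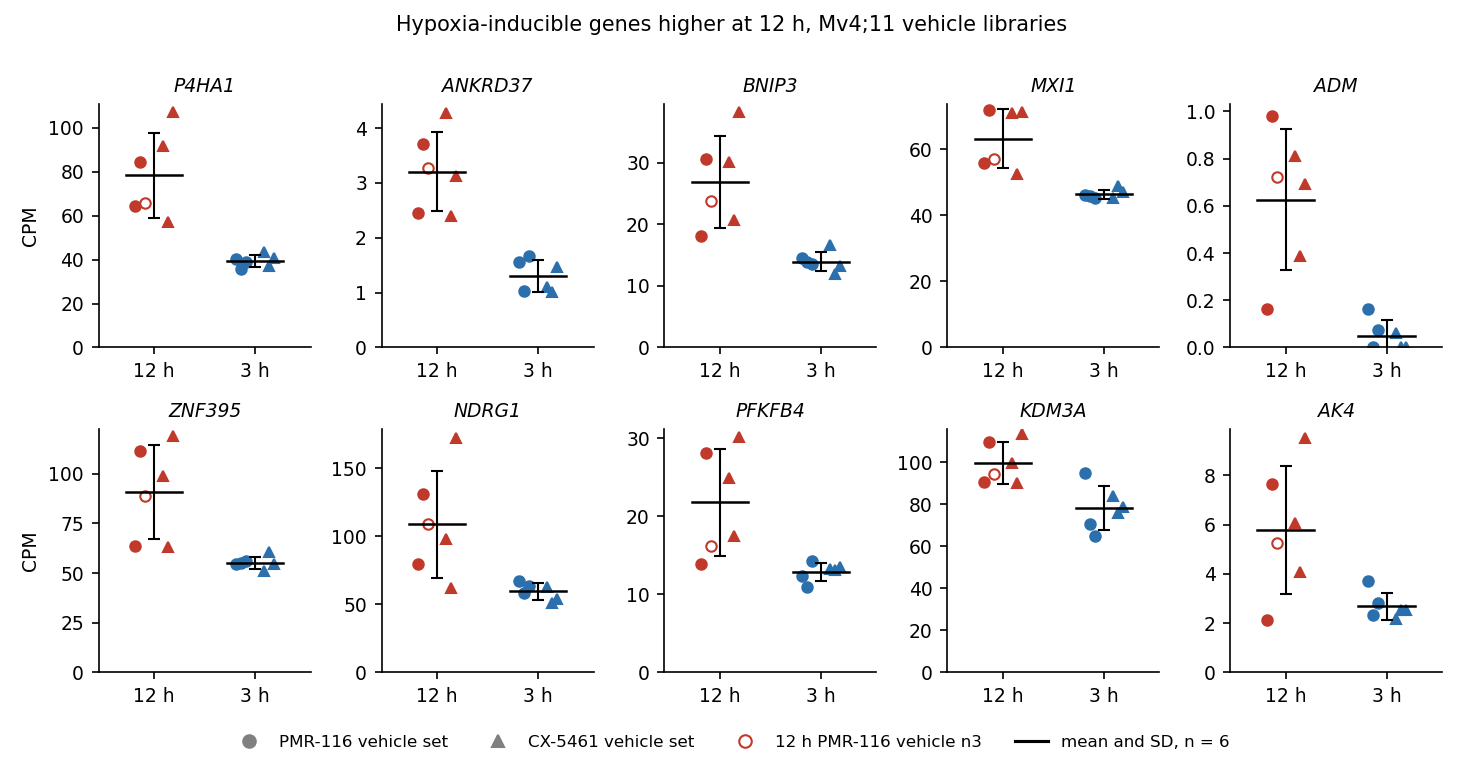
CPM of the 10 hypoxia-inducible genes with the smallest p in each Mv4;11 vehicle library (circles, PMR-116 set; triangles, CX-5461 set; open circle, n3 at 12 h), with the mean and SD of 6 libraries. P4HA1 lies between 57.2 and 107 CPM at 12 h and between 35.8 and 43.4 CPM at 3 h, and the 12 h libraries are more spread than the 3 h libraries in most panels.

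Apart from these lists, the largest rises among protein-coding genes with a mean of 5 CPM or more and no overlap between times were led by TBC1D30, a GTPase-activating protein for Rab proteins. It had 5.65, 9.87 and 16.1 CPM at 12 h and 1.89, 2.39 and 2.98 CPM at 3 h (2.05 ± 0.271, adjusted p = 0.000384). DDIT4, an inhibitor of mTORC1 induced by hypoxia and nutrient stress, had 16.8, 28.4 and 39.2 CPM at 12 h and 9.40, 10.9 and 13.2 CPM at 3 h (1.35 ± 0.189, adjusted p = 0.000559). SLC2A3, a high-affinity glucose transporter, had 13.3, 19.8 and 30.1 CPM at 12 h and 9.17, 10.2 and 11.7 CPM at 3 h (1.02 ± 0.145, adjusted p = 0.000632). The choice of genes without overlap fixes that separation, so it is a description here.

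CD300A, an inhibitory receptor of myeloid cells, had 9.34 to 18.2 CPM at 12 h and 4.57 to 6.88 CPM at 3 h (1.18 ± 0.147, adjusted p = 0.000273). MAP2K6, a kinase that activates p38, had 5.18 to 7.05 CPM at 12 h and 2.15 to 4.08 CPM at 3 h (1.09 ± 0.138, adjusted p = 0.000279). PTCH1, the Hedgehog receptor and itself a Hedgehog target, had 8.65 to 14.1 CPM at 12 h and 4.24 to 6.6 CPM at 3 h (0.98 ± 0.134, adjusted p = 0.000491). S100A9, a calcium-binding protein abundant in mature neutrophils and monocytes, had 5.05 to 6.41 CPM at 12 h and 2.09 to 4.27 CPM at 3 h (0.98 ± 0.166, adjusted p = 0.00185). Further rises were EGR1 (1.04), the arrestin-family protein ARRDC3 (0.97), the phospholipase PLA2G6 (0.82), TSPOAP1 (0.78), TENT5C, a poly(A) polymerase (0.78), and SYTL1 of vesicle docking (0.75). TSPOAP1 had its highest 12 h value in n3, at 76.6 CPM, with the other 5 libraries between 56.8 and 64.2 CPM.

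The largest falls outside the MHC class II list were led by CAMKV, a kinase-like protein, with 1.05, 1.73 and 2.07 CPM at 12 h and 4.30, 5.16 and 7.29 CPM at 3 h (-1.68 ± 0.168, adjusted p = 4.62e-05). IL2RA, the alpha chain of the interleukin-2 receptor, had 1.11, 2.04 and 3.05 CPM at 12 h and 3.92, 4.80 and 8.40 CPM at 3 h (-1.46 ± 0.232, adjusted p = 0.00121). APP, the amyloid precursor protein, had 3.24, 3.49 and 3.72 CPM at 12 h and 5.78, 7.15 and 8.54 CPM at 3 h (-1.04 ± 0.104, adjusted p = 4.62e-05). GPR183, an oxysterol receptor that guides immune cells, had 7.72 to 12.9 CPM at 12 h and 14.4 to 26.5 CPM at 3 h (-0.95 ± 0.149, adjusted p = 0.00113).

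EPB41L3, a protein that links membrane to cytoskeleton, had 73.4, 76.6 and 98.1 CPM at 12 h and 120, 144 and 175 CPM at 3 h (-0.82 ± 0.0936, adjusted p = 0.000123). The adhesion molecule CADM1 had 5.95 to 8.39 CPM at 12 h and 8.69 to 13.7 CPM at 3 h (-0.76 ± 0.121, adjusted p = 0.00128). ANKRD28, a subunit of a protein phosphatase, was lower by a similar amount (-0.78 ± 0.0842), as were GLB1L2 (-0.87), the potassium channel subunit KCNG1 (-0.84), WWC2 of the Hippo pathway (-0.77) and the glycolipid synthase A4GALT (-0.74). All 30 genes chosen by this rule kept their call whichever of the 12 libraries was left out. The EGR1 call was lost when all 8 Mv4;11 groups, treated ones included, shared 1 estimate of the spread.

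**Figure D4:**
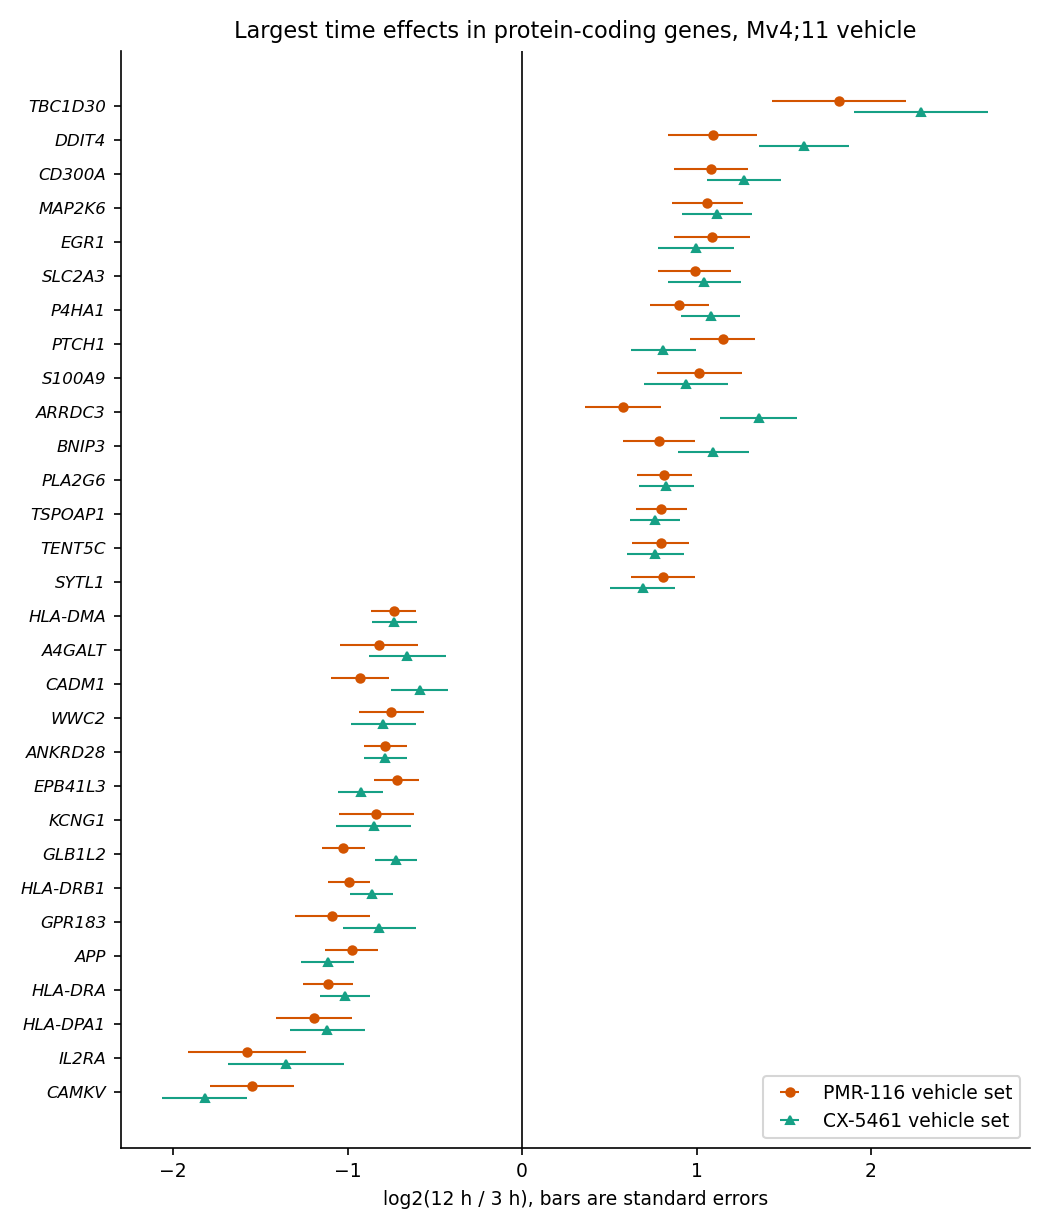
Log2 fold change of 12 h over 3 h for the 15 largest rises and 15 largest falls, estimated in each vehicle set separately (circles, PMR-116 set; triangles, CX-5461 set; bars are standard errors). The sets give the same sign for each of the 30 genes, which the choice of genes without overlap between times fixes, and TBC1D30 is farthest to the right and CAMKV farthest to the left of the genes by the combined value.

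Of 103 ribosome biogenesis factors tested, 41 were lower at 12 h (39.8%, against 7.24% of all genes tested) and 0 were higher (against 5.7%). The median log2 fold change was -0.13, with negative values in 94. SURF6, a nucleolar assembly factor, averaged 90.4 ± 3.99 CPM at 12 h and 112 ± 5.64 CPM at 3 h (SD, n = 6 each), with a log2 fold change of -0.31 and no overlap (adjusted p = 0.000478). The nucleolar GTPase GNL2 (-0.30), the shared subunit of RNA polymerases I and III POLR1C (-0.31) and the methyltransferase FTSJ3 (-0.22) were lower without overlap as well. The count was 23 without CX-5461 vehicle n2 at 3 h, 26 without CX-5461 vehicle n3 at 12 h and 32 without n3. Of 79 ribosomal protein genes tested, 1 was higher (1.27%), 0 were lower and the median was 0.01. Without n3, 6 were higher, 0 were lower and the median was 0.04.

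Of 50 MYC target genes tested, 16 were lower (32%, against 7.24% of all genes tested). The MYC antagonist MXI1, named above, was the 1 higher member (2%, against 5.7%), and the median was -0.06. DDX21, a nucleolar helicase, averaged 460 ± 40.5 CPM at 12 h and 609 ± 43 CPM at 3 h (SD, n = 6 each), a log2 fold change of -0.40 (adjusted p = 0.000647). TFRC, the transferrin receptor, had 358 to 436 CPM at 12 h and 471 to 533 CPM at 3 h (-0.31 ± 0.0462, adjusted p = 0.000871), and the ribosome assembly factor RRS1 was lower by a similar step (-0.33, adjusted p = 0.00113). None of these 3 overlapped between times.

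Of 72 G2/M and mitosis genes tested, 31 were lower (43.1%, against 7.24% of all genes tested) and 0 were higher (against 5.7%). The median was -0.15. KIF23, a motor of the midzone needed for cell division, averaged 55.6 ± 1.49 CPM at 12 h and 69.6 ± 5.22 CPM at 3 h (SD, n = 6 each), a log2 fold change of -0.32 without overlap (adjusted p = 0.00108). The mitotic kinases AURKA (-0.26) and AURKB (-0.24), the checkpoint kinase BUB1B (-0.26) and the spindle motor KIF11 (-0.21) were lower, as was MKI67, the proliferation marker of the chromosome surface, at 550 ± 23.7 CPM at 12 h and 680 ± 68.2 CPM at 3 h (SD, n = 6 each). Replicate n1 of both vehicle sets at 3 h had the highest summed levels, at 9088 and 9155 CPM, with the other 3 h libraries at 8138 to 8545 CPM and the 12 h libraries at 7600 to 8004 CPM. Without CX-5461 vehicle n1 at 12 h, 20 of the 72 were lower.

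Of 57 DNA replication and G1/S genes tested, 13 were lower (22.8%, against 7.24% of all genes tested). Higher at 12 h were 2 (3.51%, against 5.7%), and the median was -0.11. RFC3 of the clamp loader (-0.31), the flap endonuclease FEN1 (-0.26), ORC6 of the origin recognition complex (-0.25) and GINS1 of the replicative helicase (-0.27) were lower without overlap. The count of lower members rests on single libraries: it was 6 without PMR-116 vehicle n2 at 3 h, 7 without PMR-116 vehicle n3 or CX-5461 vehicle n3 at 3 h or CX-5461 vehicle n1 or n3 at 12 h, 8 without CX-5461 vehicle n2 at 3 h and 21 without PMR-116 vehicle n1 at 3 h. Histone genes of the replication-dependent class, whose main transcripts lack a poly(A) tail, had a median of 0.68 with 2 of 29 higher (6.9%). Without n3 they had a median of 0.17 with 0 called.

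Many cholesterol synthesis and uptake genes are switched on by SREBF2 when sterol falls. Of 27 tested, 9 were higher (33.3%, against 5.7% of all genes tested) and 1 was lower (3.7%, against 7.24%). The median was 0.12. MVD, an enzyme of the mevalonate pathway, had 31.3, 36.4 and 37.5 CPM at 12 h and 25.4, 29 and 31.8 CPM at 3 h, with ranges that overlapped slightly (0.29 ± 0.0599, adjusted p = 0.00531). The pathway enzymes HSD17B7 (0.47) and FDFT1 (0.25) were higher. So was MYLIP (0.40), a ubiquitin ligase that is instead induced by sterols, opposite to the genes SREBF2 switches on. TMEM97, a sterol-linked membrane protein, was lower (-0.26). The count of higher members was 6 without CX-5461 vehicle n3 at 12 h, or without PMR-116 vehicle n2 or n3 at 3 h, and otherwise up to 11.

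In the list of ATF4 and amino acid response genes, 3 of 46 were higher (6.52%, against 5.7% of all genes tested) and 7 were lower (15.2%, against 7.24%), with a median of -0.09. The higher members were DDIT4, the serine synthesis enzyme PSPH (0.30) and the transcription factor ATF5 (0.66). The lower ones included SLC7A1, a transporter of cationic amino acids, with 205 to 232 CPM at 12 h and 247 to 289 CPM at 3 h (-0.30 ± 0.0465, adjusted p = 0.00102), the mTORC1 inhibitor SESN2 (-0.47) and CEBPG, an ATF4 partner (-0.23). The 7 became 3 without n3, or without PMR-116 vehicle n2 or CX-5461 vehicle n2 at 3 h, and 4 without CX-5461 vehicle n2 or n3 at 12 h, or without PMR-116 vehicle n1 or CX-5461 vehicle n1 at 3 h.

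Among NRF2 target and iron genes, 8 of 24 were lower (33.3%, against 7.24% of all genes tested) and 1 was higher (4.17%, against 5.7%). The median was -0.16. TXNRD1, the cytosolic thioredoxin reductase, had 191 to 219 CPM at 12 h and 229 to 279 CPM at 3 h (-0.33 ± 0.0527, adjusted p = 0.00124), and NFE2L2, which encodes NRF2, had 92.3 to 103 CPM at 12 h and 105 to 136 CPM at 3 h (-0.27 ± 0.0532, adjusted p = 0.00422). The peroxiredoxin PRDX1 (-0.22) and the reductase AKR1C2 (-0.78) were lower too, and the iron exporter SLC40A1 was higher (0.64, adjusted p = 0.0182). NQO1 and HMOX1, widely used NRF2 readouts, did not pass the test, with changes of -0.27 (adjusted p = 0.117) and -0.35 (adjusted p = 0.368). The count of lower members was 5 without CX-5461 vehicle n3 at 12 h, or without n2 of either vehicle set at 3 h.

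Immediate-early genes, which growth factors and stress induce within minutes, were higher in 5 of 34 (14.7%, against 5.7% of all genes tested) and lower in 3 (8.82%, against 7.24%). FOS, the AP-1 subunit, averaged 55.9 ± 11.0 CPM at 12 h and 27.5 ± 11.3 CPM at 3 h (SD, n = 6 each), with overlap (1.01 ± 0.203, adjusted p = 0.00512), and ZFP36, which destabilises cytokine mRNAs, had 84.1 to 94.6 CPM at 12 h and 63.8 to 79.9 CPM at 3 h (0.37 ± 0.0611, adjusted p = 0.00167). EGR1, KLF4 (0.54) and IER2 (0.23) completed the higher members, and MCL1, FOSL1 and JUND were lower. The 3 lower members became 1 without PMR-116 vehicle n1 or n3 at 12 h, or without PMR-116 vehicle n2 at 3 h.

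In the NF-kB and inflammatory cytokine list, 4 of 24 were higher (16.7%, against 5.7% of all genes tested) and 1 was lower (4.17%, against 7.24%). TNF, the cytokine, averaged 21.8 ± 1.42 CPM at 12 h and 14.6 ± 3.23 CPM at 3 h (SD, n = 6 each) without overlap (0.57 ± 0.116, adjusted p = 0.00512). TNFAIP3, a feedback inhibitor of NF-kB, was higher by 0.43 ± 0.0775 (adjusted p = 0.00252), and the NF-kB subunit RELB was lower (-0.37, adjusted p = 0.0165). Without CX-5461 vehicle n2 at 3 h, 2 were higher.

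Of 44 interferon-stimulated genes, 4 were higher and 4 were lower (9.09% each way), near the shares of all genes tested, 5.7% higher and 7.24% lower. STAT2, a subunit of the type I interferon factor, had 54.3 to 61.7 CPM at 12 h and 37.7 to 48.4 CPM at 3 h (0.44 ± 0.0554, adjusted p = 0.000279), and TRIM22, an antiviral ligase, had 111 to 123 CPM at 12 h and 86.8 to 96.4 CPM at 3 h (0.37 ± 0.0405, adjusted p = 8.35e-05). Lower at 12 h were the double-stranded RNA sensor kinase EIF2AK2 (-0.60, adjusted p = 0.00388) and the interferon-induced GTPase GBP2 (-0.85, adjusted p = 0.0115).

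Of 36 monocyte and granulocyte differentiation genes, 6 were higher (16.7%, against 5.7% of all genes tested) and 4 were lower (11.1%, against 7.24%). The azurophil granule proteases CTSG and PRTN3 were higher: CTSG had 78.9, 84.8 and 94.7 CPM at 12 h and 43.2, 53.1 and 69.0 CPM at 3 h without overlap (0.61 ± 0.0936, adjusted p = 0.000991), and PRTN3 had 820 to 935 CPM at 12 h and 600 to 841 CPM at 3 h (0.33 ± 0.062, adjusted p = 0.00315). The Fc receptor FCGR1A (-0.40) and the macrophage lysosomal protein CD68 (-0.44) were lower. Among 30 p53 target genes, 3 were higher (10%, against 5.7% of all genes tested). They were FDXR, an adrenodoxin reductase (0.42, adjusted p = 0.000222), SESN1, an mTORC1 inhibitor (0.50, adjusted p = 0.000916), and the DNA repair gene XPC (0.28, adjusted p = 0.00133). The count of higher p53 targets was 5 without n3, or without PMR-116 vehicle n1 or n3 at 3 h. The 7 lower p53 targets (23.3%, against 7.24% of all genes tested) were SESN2, SPATA18, AEN, PLK3, TP53INP1, TNFRSF10B and RRM2B. Their count was between 2 and 6 in the fits that left out a library, with 2 without CX-5461 vehicle n1 at 12 h, 3 without n3, without PMR-116 vehicle n2 or CX-5461 vehicle n3 at 12 h or without PMR-116 vehicle n2 or CX-5461 vehicle n3 at 3 h, and 4 without CX-5461 vehicle n2 at 12 h or PMR-116 vehicle n1 at 3 h.

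Some lists held few called members, beside shares over all genes tested of 5.7% higher and 7.24% lower. Of 55 nuclear-encoded respiratory chain subunits, 1 was higher (1.82%) and 2 were lower (3.64%). Of 20 glucose uptake and glycolysis genes, 1 was higher (SLC2A3, 5%) and 2 were lower (10%). Those 2 became 0 without CX-5461 vehicle n2 at 3 h. Of 21 circadian clock genes, 0 were higher and 1 was lower (4.76%). Of 29 stem cell and leukaemia genes, 0 were higher and 1 was lower (3.45%). Without n3, 1 respiratory chain gene, 0 circadian clock genes and 2 stem cell and leukaemia genes were lower. The listed abundant noncoding and ribosomal RNA features took 0.548% ± 0.231 of counts at 12 h and 0.359% ± 0.0437 at 3 h (SD, n = 6 each), and without n3 they took 0.454% ± 0.0221 at 12 h (n = 5). The exact permutation test of this share, 2-sided, gave p = 0.00216 with n3 and p = 0.00433 without it. Each is the smallest value the test can give. It shuffled libraries without regard to vehicle set or to same-numbered libraries, which may not be independent. The share holds RN7SL2 and MALAT1, by which n3 was known to stand apart, so the value with n3 lends no separate support. The share rests largely on 1 feature, the mitochondrial ribosomal RNA MT-RNR2, with a mean of 4227 CPM at 12 h and 3084 CPM at 3 h. Its log2 fold change was 0.45 ± 0.0927 (adjusted p = 0.00572). Of 12 listed features tested, 4 were higher (33.3%) and 0 lower, and without n3, 4 were higher and 1 was lower. The libraries were made by selecting poly(A) RNA, so these RNAs are measured only as far as they passed that step. MALAT1 was called in the fit without n3 (-0.67, adjusted p = 0.00134) and had the opposite sign with it (0.74, adjusted p = 0.525).

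The vehicle sets were compared as well, since each compound had vehicle libraries of its own. Taken alone within a fit of the 4 groups, the PMR-116 set gave 282 called genes (1.51% of genes tested, 0.631% higher and 0.877% lower) and the CX-5461 set 403 (2.16%, 0.931% higher and 1.23% lower). These sets share no library, but same-numbered libraries of both at the same time deviated together from their group means (median r 0.156). The sets may therefore not be independent repeats. In both sets, 140 genes were called in the same direction. These were 49.6% of the PMR-116 calls and 34.7% of the CX-5461 calls, and 0 genes were called in opposite directions. HLA-DRA was lower in both sets, at -1.11 in the PMR-116 set and -1.02 in the CX-5461 set (adjusted p = 0.00421 and 0.00485), and CD74 and HLA-DRB1 were called in both as well. The difference of the time effect between the sets was called for 1 gene (0.00535%), the unnamed locus AC087721.2. Its level at 12 h was 3.78 to 4 CPM in the PMR-116 set and 6.35 to 6.85 CPM in the CX-5461 set, and at 3 h it was 7.51 to 12.3 CPM in the PMR-116 set and 3.57 to 5.29 CPM in the CX-5461 set, a difference of -1.90 ± 0.254 on the log2 scale (adjusted p = 0.0388). That call was lost in 10 of the 12 fits that left out a library. Averaged over both times, 0 genes differed between the sets by edgeR's test (0%), with 749 at an unadjusted p under 0.05.

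The time effect was then set beside that of KG-1, a second acute myeloid leukaemia line, with 8 vehicle libraries at 12 h and 8 at 3 h. The labels give each line a batch of its own, so line and batch cannot be told apart, but each time effect was measured within 1 batch. The labels mark the KG-1 table alone as trimmed, and that step cannot be told apart from the line either. In KG-1, 6264 of 17844 genes tested were called (35.1%, with 18.1% higher and 17% lower). The line had more libraries, so the 2 shares are not comparable as sizes of response. Of 15399 genes tested in both lines, 974 were called in both in the same direction, which is 43.4% of the Mv4;11 calls and 16.6% of the KG-1 calls, and 201 were called in opposite directions. The difference between the lines was called for 2455 of 22081 genes (11.1%, with 5.09% positive and 6.03% negative), and among the 2418 genes called in Mv4;11 it was called for 707, with 299 differences positive and 408 negative.

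In KG-1, HLA-DRA had a median of 131 CPM at 12 h and 128 CPM at 3 h, a log2 fold change of 0.07, and the difference from Mv4;11 was -1.13 (adjusted p = 1.19e-07). CD74 was slightly higher at 12 h in KG-1 (0.10, adjusted p = 0.0449), and the difference was -0.72 (adjusted p = 3.49e-07). Of 16 list members tested in KG-1, 4 were higher and 2 lower with a median of 0.07. Over all genes tested in KG-1, 18.1% were higher and 17% lower, and the KG-1 list counts below stand beside the same shares. The difference was negative and called for 10 of the 17 in the joint fit, against 6.03% of all genes there. CIITA was among the 10 (-0.54, adjusted p = 0.00167). Hypoxia genes were higher in both lines: in KG-1, 20 of 27 tested were higher and 1 was lower (median 0.45), and in the joint fit the Mv4;11 effect was larger for 1 member, AK4 (1.24, adjusted p = 0.00109), and smaller for 6. DDIT4 was higher by 1.23 in KG-1 and SLC2A3 by 1.05, close to their values of 1.35 and 1.02 in Mv4;11, and the differences of 0.12 and -0.03 did not pass the test (adjusted p = 0.899 and 0.996).

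In KG-1, 1 of 27 cholesterol genes was higher and 17 were lower (median -0.20), and the difference was positive for 16, such as MVD (0.59, adjusted p = 4.54e-05) and FDFT1 (0.45, adjusted p = 7.96e-05). For the ATF4 list, 31 of 46 were higher in KG-1 and 2 were lower (median 0.28), and the difference was negative for 25, with CEBPG at -0.42 (adjusted p = 0.000379). ATF5 differed in the other direction: it was lower in KG-1 (-0.96) and higher in Mv4;11 (difference 1.63, adjusted p = 2.31e-05). G2/M genes had a median of 0.04 in KG-1, with 21 of 71 higher and 16 lower, against 18.1% and 17% of all genes tested. The difference was negative for 28 of 72 and positive for 1, against 6.03% and 5.09% of all genes in the joint fit. Ribosome biogenesis factors were often lower in both lines, with 77 of 103 lower and 2 higher in KG-1 (median -0.23).

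Single genes with the smallest p for the difference included LIMA1, an actin-binding protein, with 28.4 to 34 CPM at 12 h and 18.7 to 22.6 CPM at 3 h in Mv4;11 (0.65) and a log2 fold change of -0.33 in KG-1 (difference 0.98 ± 0.0869, adjusted p = 5.26e-08). AFF1, the fusion partner of KMT2A in Mv4;11, was higher at 12 h in Mv4;11 (0.36) and lower in KG-1 (-0.23), and the counts do not separate fusion from normal transcripts. CCPG1, a receptor for autophagy of the endoplasmic reticulum, had 87.1, 102 and 110 CPM at 12 h and 142, 152 and 192 CPM at 3 h in Mv4;11 (-0.66) and was higher at 12 h in KG-1 (0.57), a difference of -1.23 (adjusted p = 3.41e-07). APP had a log2 fold change of 0.02 in KG-1 (difference -1.06, adjusted p = 2.99e-09). TNF was lower at 12 h in KG-1 (-1.03), opposite to Mv4;11 (difference 1.62, adjusted p = 1.19e-05), and IL2RA was higher there (0.42; difference -1.89, adjusted p = 6.92e-05).

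**Figure D5:**
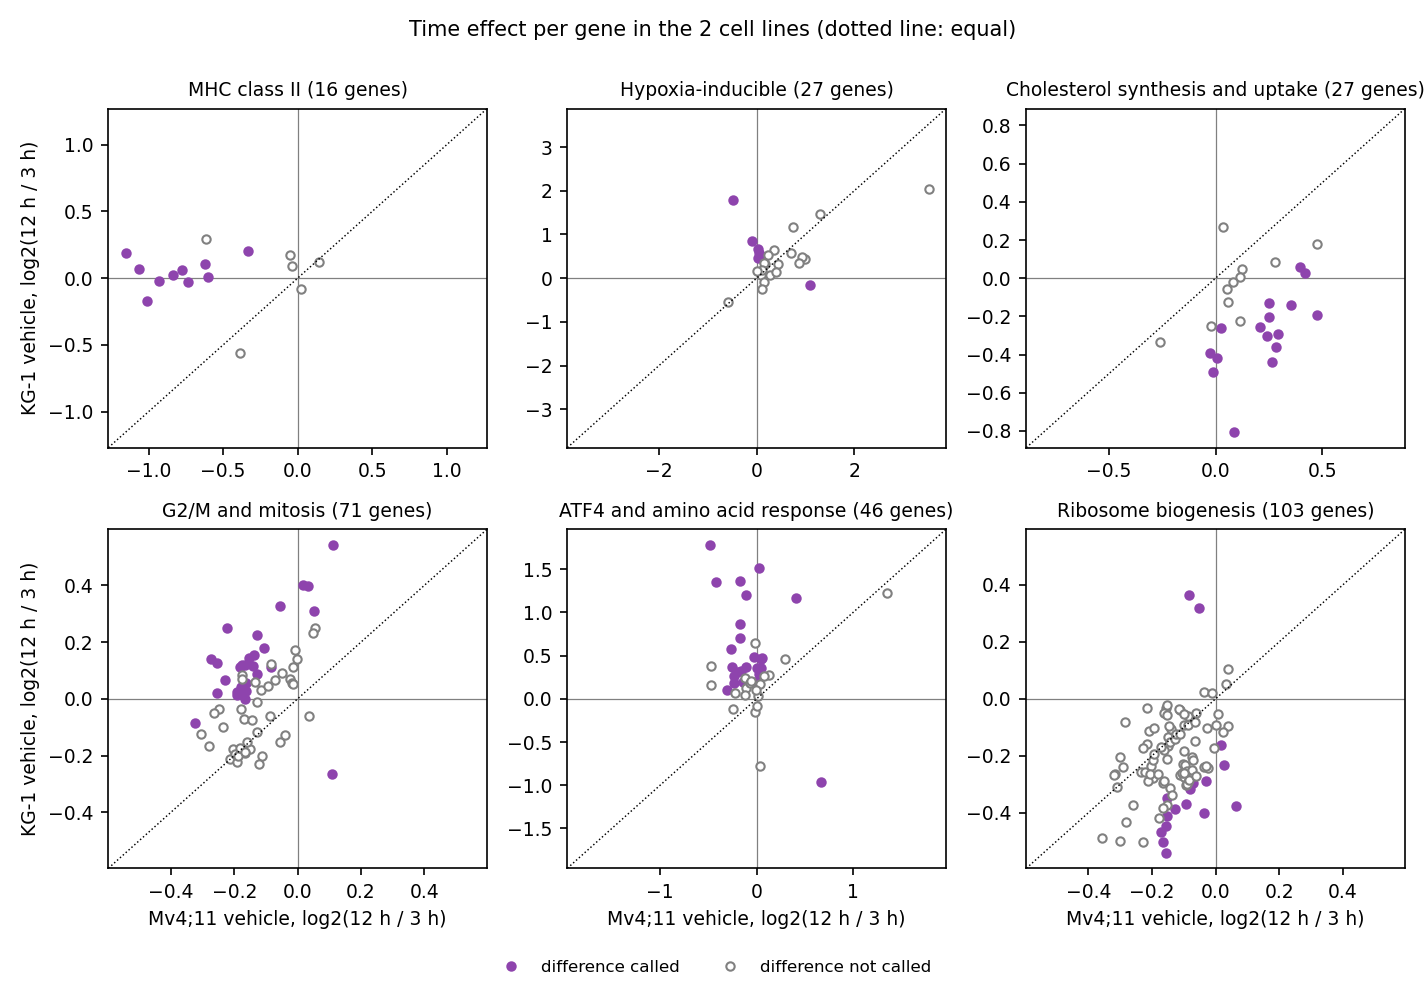
Log2 fold change of 12 h over 3 h in Mv4;11 (horizontal axis) and KG-1 (vertical axis) for each gene of 6 lists, filled where the difference between lines had an adjusted p under 0.05, with a dotted line where both are equal. MHC class II genes spread to the left at values near 0 in KG-1, most hypoxia genes lie in the upper right, and ribosome biogenesis factors lie mainly in the lower left.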

How the data were processed

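Per the labels' protocols, RNA came from a Nucleospin kit and libraries from an Illumina kit for stranded, poly(A)-selected mRNA. The authors deposited a table of estimated counts per gene symbol for each line. Salmon 1.5.2, DESeq2 and GRCh38.p13 are named, with no roles, in the submitters' processing notes. No annotation release or strand setting for counting is given in the sources used here. In the Mv4;11 table, 24 columns with no matching label were left out.

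Estimated counts were rounded and analysed with edgeR 4.0.16 (limma 3.58.1, R 4.3.3). Genes were kept by filterByExpr (minimum count 10, minimum total 15) and libraries scaled by TMM, edgeR's trimmed-mean method. The model held time and vehicle set, fitted to the 12 Mv4;11 vehicle libraries alone. A model of the 4 groups gave the effect within each set and its difference between sets. KG-1 was fitted in the same way on its 16 vehicle libraries, and both lines jointly for differences between them. Tests were quasi-likelihood, 2-sided, with Benjamini-Hochberg adjustment across every tested gene, and calls used an adjusted p under 0.05. CPM use TMM-scaled library sizes and are not corrected for gene length. The scripts were tested on simulated data.

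Genes were named by rule: the 15 largest rises and falls among protein-coding genes that were called, had a mean of 5 CPM or more at the higher time and did not overlap; up to 6 called members of each list with the smallest p, with members of defining role; and, for the difference between lines, the 5 smallest adjusted p in each direction. Other genes named from the lists, MKI67, AK4, TNF, ATF5, NQO1 and HMOX1 among them, and the hypoxia promoters were chosen after their values were seen. The libraries compared and the gene lists were chosen with earlier results of these data known. List counts are set beside the share of all genes called.

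Alternatives were DESeq2 size factors, library totals, no filter, DESeq2 1.42.0, no vehicle set term, all 8 Mv4;11 groups in 1 fit, each vehicle set alone, each library left out, and replicate number as a block. Same-numbered libraries of different sets at the same time deviated together from their group means (r of deviations 0.00256 to 0.509, median 0.156), so a fit with these summed was added after seeing the data. With few libraries per group, p-values and SDs cover the spread between libraries only.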

Additional observations from a re-analysis of the deposited data

Results flagged for a closer look

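Each value below either lay far from the other libraries of its group or differed between lines or vehicle sets. Of 106 groups of 6 libraries checked for a library that stood apart, 9 held one, and chance gives about 1 in 20. In several of these it was n3, the PMR-116 vehicle replicate 3 at 12 h: RN7SL2 at 432 CPM, MALAT1 at 1111 CPM, MT-RNR1 at 2572 CPM and a noncoding share of 1.02% of counts. That n3 was rich in RN7SL2 and MALAT1 was known before this check, and the noncoding share holds both. Those flags were fixed in advance, so the count of 9 cannot be set against 1 in 20. A further flag of n3 was TSPOAP1 at 12 h, where it was highest, at 76.6 CPM. At 3 h, CX-5461 vehicle n2 had the lowest TSPOAP1, at 24.5 CPM, and the highest RN7SL2, at 15.1 CPM. PMR-116 vehicle n1 at 3 h had the highest HLA-DOB, at 2.41 CPM, and PMR-116 vehicle n3 at 3 h the lowest share of mitochondrially encoded mRNA, at 3.89% of counts.

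The time effect differed between Mv4;11 and KG-1 by the test of the difference itself, with positive values where the log2 fold change was greater in Mv4;11. Among MHC class II genes the difference was -1.13 for HLA-DRA, -0.91 for HLA-DRB1, -0.87 for HLA-DRB5, -1.35 for HLA-DPA1, -0.83 for HLA-DPB1, -0.61 for HLA-DQB1, -0.70 for HLA-DMA, -0.82 for HLA-DMB, -0.72 for CD74 and -0.54 for CIITA. Other negative differences were -1.89 for IL2RA, -1.23 for CCPG1, -1.13 for WWC2, -1.06 for APP, -0.72 for GPR183 and -0.69 for ANKRD28. Positive differences were 1.80 for TBC1D30, 1.32 for S100A9, 1.18 for EGR1, 1.11 for TSPOAP1, 0.98 for LIMA1, 0.84 for CD300A, 0.78 for ARRDC3, 0.77 for NREP, 0.63 for SRSF5, 0.63 for PTCH1, 0.59 for AFF1, 0.54 for PLA2G6 and 0.44 for TENT5C. Line and batch cannot be told apart in these. Between the vehicle sets, the time effect of AC087721.2 differed by -1.90, PMR-116 minus CX-5461.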

How the results depend on the processing

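The number of genes called between 12 h and 3 h in Mv4;11 was 2418, and it lay between 1566 (without CX-5461 vehicle n3 at 12 h) and 2214 when each library was left out in turn. The PMR-116 vehicle set alone gave 63 and the CX-5461 vehicle set alone 401, each from fewer libraries. Summing same-numbered libraries of both sets, an alternative chosen after seeing the data, gave 824, of which 810 were also called with the libraries kept separate. Under it 15 ribosome biogenesis factors, 12 G2/M genes, 8 MYC targets, 4 DNA replication genes, 5 NRF2 and iron genes and 8 MHC class II genes were lower, and 12 hypoxia and 3 cholesterol genes were higher. Also under it, the lower members numbered 3 for ATF4, 2 for p53, 1 for monocyte and granulocyte genes and 0 for immediate-early, NF-kB and glycolysis genes, and the higher ones 3 for immediate-early, 2 for NF-kB, 2 for interferon-stimulated and 0 for DNA replication and for NRF2 and iron genes. In this setting the calls of CIITA (adjusted p = 0.079), HLA-DPB1 (0.0524) and BNIP3L (0.0637) were lost. Scaling by library totals gave 2319 calls and a share of higher calls of 52.5%, against 44%, and moved the median over all genes to 0.03, against 0.01. The difference between vehicle sets was called for 147 genes without a filter on low counts, 2 by DESeq2, 2 with the replicate block, and 0 to 1 when a library was left out. For the difference between lines the range over libraries left out was 2061 to 2404, and for KG-1 it was 5618 to 6394. Across times, same-numbered libraries had an r of deviations of -0.03 to 0.06 within a vehicle set. Between sets it was -0.075 to 0.117 (median 0.0861), against a median of -0.0147 over all pairs between groups. With the replicate block 2663 genes were called in Mv4;11, 3250 for the difference between lines and 7156 in KG-1. The 121 called genes of the lists and rules that were followed kept their direction in every setting: 97 lost their call with the PMR-116 set alone, 57 with the CX-5461 set alone, 2 by DESeq2, 3 with all 8 groups, 1 with the block, 24 when summed, and 1 to 10 when a library was left out. Depth limits the genes at a few counts, such as ADM and EGLN3. The causes of these shifts were not tested.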
